A study of Arachis hypogaea with 15 samples.

Results

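The shoot apex of wild-type cultivated peanut (Arachis hypogaea) was compared with its leaflets across all genes. The comparison used 9 of the 15 libraries of the series, which were 3 of shoot apical tissue, 3 of the terminal leaflet and 3 of the lateral leaflet. Members were taken by the tissue label, and the apex was set against the mean of the leaflet groups, each with equal weight. All 9 came from wild-type plants 40 days old, grown in soil in a chamber at 22 °C with a 16 h day and 70% relative humidity. The remaining 6 libraries, 3 of the wild-type petiole and 3 of the apex of a mutant with pentafoliate defects, entered the filter on low values and the estimate of the spread between replicates, and the petiole is given as another organ for some genes. The labels give neither the hour of harvest nor the stage of the leaflets, and do not say how many young leaves the apical samples held. Values are FPKM, fragments per kilobase of transcript scaled to the mapped fragments of each library, as the authors deposited them. Changes are apex minus leaflets on the log2(FPKM + 1) scale with the standard error (SE), a scale that understates the change of low genes. The p-values are from limma, a linear model fitted over all genes, and were adjusted by the method of Benjamini and Hochberg over all genes tested.

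The shoot apical meristem renews a small population of dividing cells and gives off leaf primordia from its flanks. Class I KNOX homeobox genes keep cells of the meristem undifferentiated and are switched off where a leaf is to form, while boundary genes separate the new organ from the meristem. Leaf cells then acquire polarity, divide, expand and build chloroplasts, and in compound leaves the same regulators can act again where leaflets form.

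Of 59878 genes in the table, 39031 passed the filter of 1 FPKM in at least 3 of the 15 libraries. At an adjusted p under 0.05, 13764 genes (35.3%) were higher in the apex and 17293 (44.3%) were lower, so 79.6% were called in either direction and 7974 genes were not. A change of at least 2-fold was also reached by 3734 higher genes (9.57%) and 5483 lower genes (14.0%). The balance of all calls depended on the scaling, with 15757 higher and 15264 lower under quantile normalization and 16158 higher and 16437 lower after rescaling to TPM. Called changes of at least 4 on the log2(FPKM + 1) scale leaned the other way, with 158 genes higher and 66 lower. Genes low in both organs cannot reach that size on this scale, whatever their fold in FPKM. The balance of these changes was not computed under the other scalings. The median change over all tested genes was -0.09, with quartiles of -0.63 and 0.41, and 0.007 under quantile normalization and -0.0125 after rescaling to TPM. In 12276 genes (31.5%) all 3 apex libraries lay above all 6 leaflet libraries, and in 15117 (38.7%) they all lay below. Because most genes were called, the counts of each gene group are to be read beside these shares. A gene near 0 in the leaflets could pass the filter only through an organ where it was high, so counts over tested members of such a group do not describe all its members.

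The depths of the libraries are not given, and only their low values could be compared. The most frequent value above 0 was 0.11 FPKM for transcripts of 500 to 509 bases in every library. Between 48705 and 50560 genes were above 0 in a library. Replicates correlated at 0.988 to 0.990 across genes, apex with leaflet libraries at 0.760 to 0.768, and terminal with lateral leaflet libraries at 0.980 to 0.982, each computed over genes, which are not independent. A principal component analysis of the 9 libraries placed 89.9% of the variance on its leading axis. The series calls its replicates biological without saying how plants were pooled, so p-values measure the spread between these samples.

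**Figure D1:**
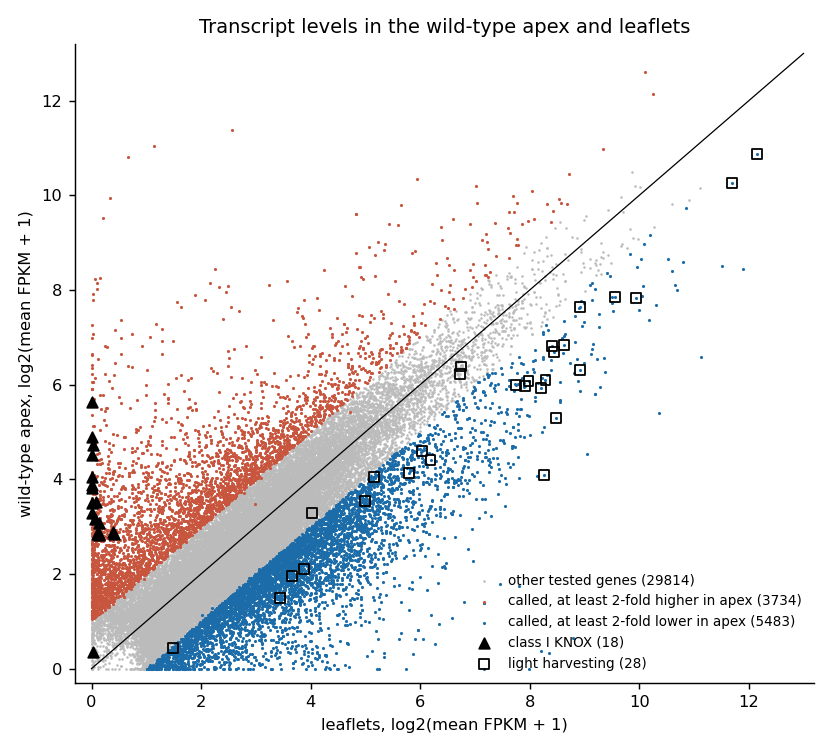
Each point is a tested gene, placed by its mean level in the leaflets (horizontal) and in the wild-type apex (vertical), both as log2(mean FPKM + 1). Red points are the 3734 genes called at least 2-fold higher in the apex, blue points the 5483 called at least 2-fold lower, and the line marks equal levels. Triangles (18 class I KNOX genes) lie at the left edge and squares (28 light-harvesting genes) lie below the line.

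Markers of each organ were compared with the tissue labels. The 6 genes annotated as LET6 or SBH1 class I KNOX summed to 95.9 to 100.1 FPKM in the apex libraries and to 0.03 to 0.12 FPKM in the leaflet libraries. Genes for the small subunit of Rubisco, the enzyme that fixes CO2, summed to 832 to 862 FPKM in the apex and 9227 to 11749 FPKM in the leaflets. The stem cell genes WUSCHEL and CLAVATA3 gave almost no signal, since the 2 genes named WUSCHEL reached at most 0.2 FPKM in any of the 9 libraries and the 2 named CLAVATA3 at most 0.49 FPKM. No gene named as a leghemoglobin or as a xylem cysteine proteinase was found among the product names. In bulk tissue, fewer cells of a type and less RNA per cell cannot be told apart.

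Most tested class I KNOX genes were far higher in the apex than in the leaflets. Of 19 genes, 18 were tested and 17 were higher, all of them at least 2-fold, with a median change of 3.36. The homeotic protein knotted-1-like gene arahy.A8JEVC.1 (chromosome 16, 150935770 to 150946553) was at 48.6, 46.9 and 51.4 FPKM in the apex libraries. In the leaflets it ranged from 0 to 0.03 FPKM with a median of 0, and its change was 5.63 (SE 0.048, adjusted p = 2.76e-19). The LET6 gene arahy.EUX0L6.1 (chromosome 7, 5926202 to 5931136), whose namesake in tomato is a class I KNOX gene, was at 28.5, 28.8 and 28.4 FPKM. Its leaflet values were 0 to 0.03 FPKM, and it rose by 4.87 (SE 0.048, adjusted p = 9.46e-19). The groups did not overlap for either gene. The single member not called, arahy.ZTJV1A.1 (knotted-1-like 1), averaged 0.28 FPKM in the apex. The petiole was not low for every member, since the apex minus petiole change was -1.47 for arahy.U5Q1QL.1 and 0.004 for arahy.S28ZE3.1, both knotted-1-like 1.

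Partners and relatives of these genes did not all move the same way. BELL homeodomain proteins pair with KNOX proteins, and of 29 tested BELL genes 12 were higher and 15 lower. The BEL1-like 9 gene arahy.AL7WCM.1 (chromosome 2, 84835785 to 84843901) was at 16.9, 18.0 and 17.6 FPKM in the apex and at 0.17 to 0.37 FPKM (median 0.23) in the leaflets, a rise of 3.89 (SE 0.050). Its petiole mean was 10.5 FPKM, so the leaflets were the low organ. The BELL gene with the highest mean over the 9 libraries, arahy.69CRNN.3 (BEL1-like 4), went the other way, from 29.4 to 32.7 FPKM in the leaflets to 10.2 to 11.2 FPKM in the apex (change -1.44, SE 0.083). Class II KNOX genes, which are active in differentiating organs, were all lower than in the leaflets, 8 of 8 tested. Only 2 fell by at least 2-fold. Against the petiole the direction was the opposite. The apex minus petiole changes of all 8 class II genes were positive, from 0.07 to 1.65 with a median of 0.83. The most abundant in the apex, arahy.TRGC7G.1 (knotted-1-like 3), was at 9.49, 10.7 and 10.3 FPKM against 16.3 to 19.9 FPKM (median 18.4), a fall of 0.78 on the log2 scale (SE 0.082, adjusted p = 4.40e-07).

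Genes that mark organ boundaries were higher in the apex, and several were near 0 in the leaflets. Of 11 CUP-SHAPED COTYLEDON genes, NAC factors that keep neighbouring organs apart, 5 passed the filter, and these rose by 1.77 to 3.07. The list's median was 2.39, and 0.71 without the filter. The gene arahy.XB6K25.1 (chromosome 18, 26244149 to 26246859) was at 7.86, 7.26 and 7.78 FPKM in the apex and at 0 to 0.1 FPKM in the leaflets. All 16 tested LIGHT-DEPENDENT SHORT HYPOCOTYLS (LSH) genes, which are expressed at boundaries in Arabidopsis, were higher than the leaflet mean, with a median change of 3.78. In 15 the change was at least 2-fold. The LSH6 gene arahy.1M0B45.1 was not above both leaflets. It was at 3.58, 4.14 and 2.62 FPKM in the apex, 3.62, 4.95 and 4.58 FPKM in the terminal leaflet and 0.80, 1.01 and 1.17 FPKM in the lateral leaflet. The LSH1 gene arahy.7VWF6Q.1 (chromosome 16, 20364700 to 20365254) was at 47.8, 50.7 and 54.8 FPKM, against 0 to 0.18 FPKM in the leaflets (change 5.66, SE 0.071, adjusted p = 9.83e-18). The petiole held 15.04 FPKM of it on average, and the median LSH gene was 1.00 higher in the apex than in the petiole. Over all genes 3.86% were called at least 2-fold higher and 2.21% lower in the apex than in the petiole, in a comparison that shares the apex libraries. Among 8 NPR5 and LATERAL ORGAN BOUNDARIES genes 7 were higher. NPR5 is also known as BLADE-ON-PETIOLE in Arabidopsis, and arahy.D2XTM9.1 was at 12.8, 13.8 and 14.5 FPKM against 0.58 to 1.25 FPKM (median 1.01).

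**Figure D2:**
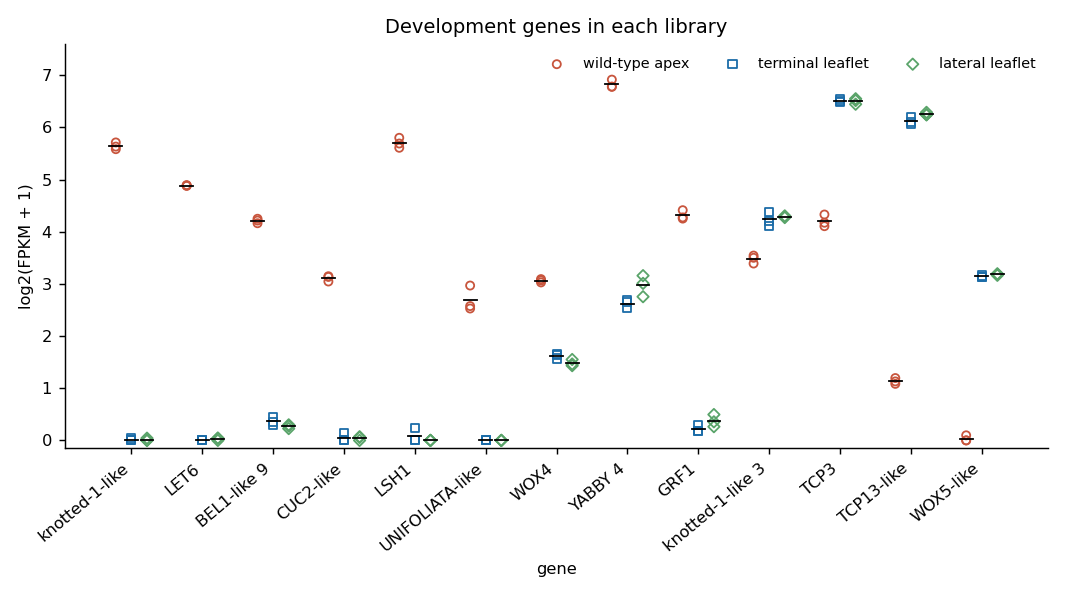
Values of 13 development genes in each of the 9 libraries as log2(FPKM + 1), with circles for the wild-type apex, squares for the terminal leaflet and diamonds for the lateral leaflet. Bars mark group means (n = 3). The genes from knotted-1-like to GRF1 lie higher in every apex library, and those from knotted-1-like 3 to WOX5-like lie lower.

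The genes known from compound leaf mutants of pea were also apex transcripts. UNIFOLIATA, the pea relative of LEAFY, keeps the young leaf indeterminate in pea, and UNUSUAL FLORAL ORGANS is an F-box partner of LEAFY in Arabidopsis. All 6 tested genes of these names were higher by at least 2-fold. The most abundant, arahy.31D2RV.1 (UNIFOLIATA-like, chromosome 3, 117031167 to 117032832), was at 4.77, 4.96 and 6.83 FPKM in the apex and listed at 0 in all 6 leaflet libraries (change 2.69, SE 0.088). Its petiole mean was 0.0467 FPKM.

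WUSCHEL-related homeobox (WOX) genes were divided, with 10 of 16 tested genes higher and 5 lower. WOX4, which acts in the cambium of Arabidopsis, was at 7.16, 7.53 and 7.37 FPKM for arahy.1N4HLL.1, against 1.70 to 2.14 FPKM in the leaflets (change 1.51, SE 0.060). A second WOX4 entry, listed at the same start, held identical values in every library and is not an independent measurement. The largest fall of the family was in the WOX5-like gene arahy.4BW8FX.1 (chromosome 13, 4623689 to 4624835). Its leaflet values were 7.80 to 8.15 FPKM (median 7.96), while the apex libraries held 0.07, 0 and 0 FPKM (change -3.13, SE 0.066, adjusted p = 3.10e-15). In Arabidopsis the namesake marks the quiescent centre of the root, a role that these data do not address. Of 9 tested CLAVATA and CLE genes, 3 were higher and 2 lower. Both tested CLAVATA1 receptor kinase genes were among the higher, arahy.97EMNK.1 by 1.31 and arahy.8BA7G9.1 by 1.04, and both CLE19 peptide genes were lower, by 1.85 and 1.71.

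Leaf polarity genes of the upper side and many of the lower side were higher in the apex. HD-ZIP III factors specify the upper side of the leaf and the meristem, and AS1 represses KNOX genes in leaf primordia. All 13 tested genes of this list were higher, 4 by at least 2-fold, with a median of 0.83, or 0.52 without the filter. The ATHB-15 gene arahy.2NG6S0.1 was at 31.6, 31.1 and 28.6 FPKM against 5.44 to 7.14 FPKM (median 7.01), a rise of 2.04 (SE 0.058). The AS1 gene arahy.Z9PFJZ.1 was at 82.0, 82.2 and 88.7 FPKM against 41.0 to 55.3 FPKM (median 46.1).

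Of 19 tested KANADI genes, which specify the lower side, 12 were higher and 6 lower, 9 and 1 by at least 2-fold, with a median of 0.94, and KAN1-like arahy.J44A69.1 rose by 2.09 (SE 0.075). YABBY genes mark lateral organs, and 7 of 13 were higher and 4 lower. The pair named protein YABBY 4 stood apart, with arahy.BZ1GLD.1 (chromosome 11, 53319148 to 53323272) at 109, 109 and 120 FPKM in the apex against 4.80 to 7.93 FPKM (median 5.59). That was a rise of 4.03 (SE 0.076, adjusted p = 8.77e-16), and the petiole mean was 2.53 FPKM. The YABBY 2 and YABBY 5 genes that fell did so by 0.58 to 0.78.

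Growth regulators separated by family. Growth-regulating factors (GRF) and their GIF cofactors promote cell proliferation in young leaves, and 27 of 30 tested genes were higher, 20 by at least 2-fold, with a median of 1.76. The GRF1 gene arahy.7VQ11G.1 (chromosome 11, 149197584 to 149200780) was at 18.4, 18.1 and 20.3 FPKM against 0.14 to 0.41 FPKM (change 4.02, SE 0.065). The most abundant GRF1 gene, arahy.N7G5LN.1, differed less, at 129, 133 and 136 FPKM against 47.2 to 53.3 FPKM (change 1.36, SE 0.034). SPL factors, targets of miR156 in other plants, were higher for 29 of 33 genes, and AINTEGUMENTA-like genes, which sustain organ growth, for 18 of 25. The median of the AINTEGUMENTA-like list was 0.96, and -0.02 when its unfiltered low genes were included. The AINTEGUMENTA gene arahy.ZL8GWI.1 was at 15.8, 14.2 and 16.1 FPKM against 1.83 to 2.67 FPKM.

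CIN-type TCP factors, which end cell division in the leaf blade, were lower for 5 of 8 tested genes, all by at least 2-fold, and none was called higher. TCP13-like arahy.N9U68C.1 (chromosome 10, 110274281 to 110276042) was at 1.19, 1.29 and 1.12 FPKM in the apex against 66.2 to 77.2 FPKM (median 73.6). It fell by 5.05 on the log2 scale (SE 0.085, adjusted p = 2.21e-16). The 3 members not called were 2 TCP4-like genes and 1 TCP5-like gene, whose changes were -0.09 to 0.03. TCP13-like was also low in the petiole, at a mean of 0.987 FPKM, and TCP3 arahy.T0E7SC.1 averaged 4.58 FPKM there against apex values of 16.2 to 19.1 FPKM. Class I TCP genes were higher for 8 of 10, among them TCP14 arahy.Q9YRAB.1 at 45.8 to 52.7 FPKM against 13.1 to 18.3 FPKM. Of 8 CYC-type genes, named for regulators of axillary buds and flower symmetry, 3 passed the filter and were at least 2-fold higher, with a median of 1.63, or 0.20 without the filter.

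Many cell division transcripts were lower in the apex samples than in the leaflets, mostly by less than 2-fold. A and B cyclins, which drive S phase and mitosis, were lower for 28 of 33 tested genes and higher for 1, with a median of -0.80. Cyclin A3-1 arahy.FF27K2.1 was at 4.86, 5.43 and 4.10 FPKM against 19.3 to 21.3 FPKM (median 21.0; change -1.90, SE 0.087). The most abundant member, cyclin B1-2 arahy.M5A7E6.1, was at 203, 215 and 198 FPKM against 205 to 228 FPKM and was not called (change -0.06, adjusted p = 0.242). Its sign turned when libraries were rescaled to TPM (0.04). Histone genes were lower for 35 of 43, with the most abundant, H2B.1 arahy.2MB6KR.1, at 1136, 1129 and 1148 FPKM against 2028 to 2397 FPKM. Of 89 DNA replication genes 59 were lower and 12 higher, and of 123 kinesin genes 82 were lower and 16 higher. At least 2-fold lower were 9 (10.1%) and 13 (10.6%) of these, below the 14.0% of all genes. For A and B cyclins and histones it was 10 (30.3%) and 11 (25.6%), above that share.

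A kinesin gene ran against its family. KIN-13A arahy.D324NA.2, from a family of kinesins that depolymerise microtubules, was at 347, 349 and 381 FPKM in the apex and at 25.2 to 31.2 FPKM (median 29.4) in the leaflets (change 3.61, SE 0.037). D cyclins, which link growth signals to division, had 16 of 45 genes higher and 18 lower, near the shares of all genes. Putative cyclin-D6-1 arahy.V2AQ6U.1 fell by 4.16, from 55.9 to 57.3 FPKM in the leaflets to 2.04 to 2.43 FPKM. Cytosolic ribosomal proteins were lower for 240 of 360 genes, but only 16 by at least 2-fold, and their share of the summed FPKM was 6.096% ± 0.0189 in the apex (SD, n = 3) against 7.102% ± 0.136 in the terminal and 6.501% ± 0.0754 in the lateral leaflet. The median of the D cyclins was -0.10, and 0.04 under quantile normalization.

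**Figure D3:**
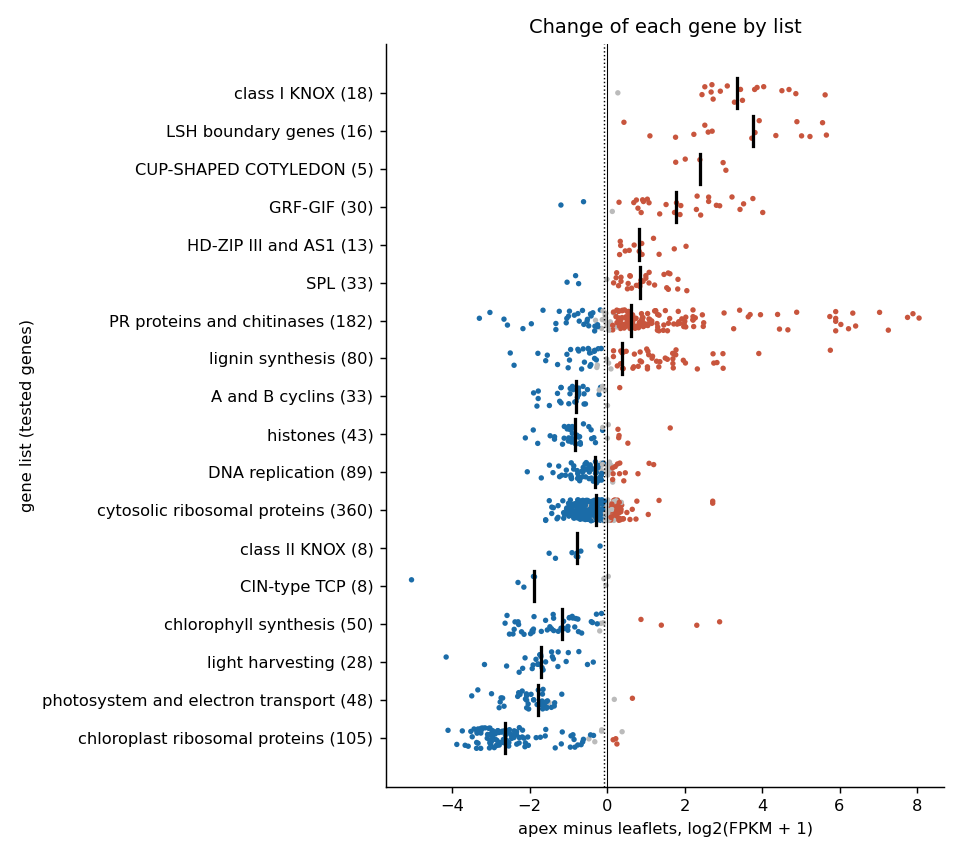
Each point is a tested gene of the list named at left, placed by its change on the log2(FPKM + 1) scale. Red points were called higher in the apex, blue points lower, and grey points were not called. Black bars are list medians, and the dotted line is the median of all tested genes (-0.09). Class I KNOX, LSH and GRF-GIF genes lie to the right, and chloroplast ribosomal protein genes, with a median of -2.63, lie farthest to the left.

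Genes for the protein synthesis machinery of the chloroplast had the lowest median of all the lists. Of 105 tested genes for chloroplast ribosomal proteins encoded in the nucleus, 97 were lower in the apex and 86 by at least 2-fold, with a median of -2.63. The L4 gene arahy.MB6FU1.1 (chromosome 9, 8143517 to 8146130) was at 9.77, 10.2 and 9.44 FPKM against 183 to 188 FPKM (median 186; change -4.11, SE 0.036, adjusted p = 3.46e-19). These genes made up 0.357% ± 0.0077 of the summed FPKM in the apex (SD, n = 3), against 2.16% ± 0.0386 in the terminal leaflet and 2.18% ± 0.0257 in the lateral leaflet. Their median was 1.05 lower in the apex than in the petiole, so the petiole lay between. The 117 tested genes with product names of the chloroplast genome had a median of 0.02, with 25 higher, 22 lower and 70 not called. Without the filter the median was -0.004. Among them, arahy.DT26DQ.1 is placed on chromosome 3 in the deposited file. Whether these entries measure transcripts of the chloroplast genome was not tested.

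Photosynthesis genes fell together but less far. All 28 light-harvesting genes were lower, 25 by at least 2-fold (median -1.72), as were 45 of 48 photosystem and electron transport genes, all 45 by at least 2-fold (median -1.80). The most abundant light-harvesting gene, arahy.QXM1B7.1, was still at 1848, 1840 and 1978 FPKM in the apex, against 3953 to 5271 FPKM. The photoprotective photosystem II 22 kDa protein fell further, with arahy.QP7RRL.2 at 13.8, 13.3 and 16.4 FPKM against 168 to 178 FPKM (change -3.50, SE 0.052). Carbon fixation genes were lower for 34 of 39, and the Rubisco small subunit gene arahy.97RMNS.1 was at 333, 359 and 345 FPKM against 3579 to 4179 FPKM (median 3718). Carbon fixation genes held 0.312% ± 0.0027 of the summed FPKM in the apex (SD, n = 3), 2.53% ± 0.0945 in the terminal leaflet and 2.02% ± 0.016 in the lateral leaflet.

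Photorespiration genes were lower for 19 of 24. The H protein of glycine decarboxylase, arahy.DGK5DJ.1, was at 1.55, 0.98 and 2.33 FPKM against 141 to 147 FPKM (change -5.82, SE 0.11), and a second entry held identical values. Chlorophyll synthesis genes were lower for 43 of 50, among them protochlorophyllide reductase arahy.9Z13IR.1 at 112 to 118 FPKM against 558 to 578 FPKM. A geranylgeranyl reductase gene, arahy.J4UDZG.1, was higher at 19.99, 19.8 and 21.1 FPKM against 1.56 to 2.32 FPKM. The GATA factor 22 gene arahy.QY7BN7.1, whose Arabidopsis namesake promotes chlorophyll synthesis, fell by 5.52 (SE 0.080), from a leaflet median of 95.8 FPKM to 0.8, 1.14 and 1.36 FPKM.

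**Figure D4:**
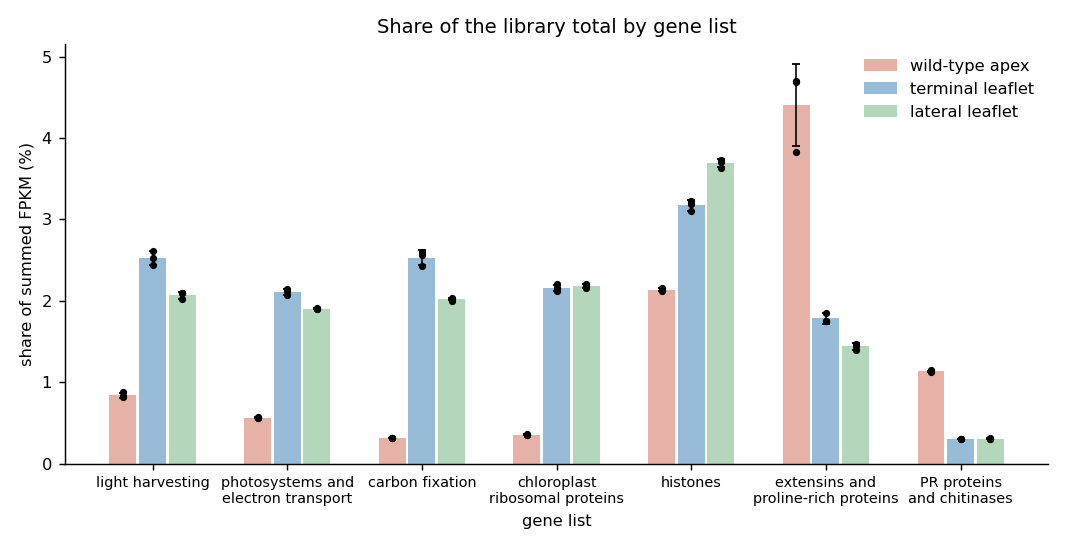
Share of the summed FPKM of each library held by 7 gene lists. Bars are group means, error bars the SD (n = 3), and points the libraries. The apex holds less than both leaflets for the 4 chloroplast lists and for histones, and more for extensins and proline-rich proteins (4.41% ± 0.504) and for PR proteins and chitinases (1.14% ± 0.0073).

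Several sugar genes differed widely. Sucrose synthase, which breaks sucrose down in importing tissue, was at 518, 526 and 546 FPKM in the apex for arahy.53FINS.2, against 80.2 to 86.8 FPKM in the leaflets (change 2.66, SE 0.024, adjusted p = 3.43e-19). Of 87 tested starch and sucrose genes 30 were higher and 45 lower, near the shares of all genes. SWEET sugar exporters were higher for 11 of 16, with SWEET3-like arahy.7NL1KT.2 at 16.3, 15.4 and 12.8 FPKM against 1.01 to 2 FPKM. Sucrose and hexose transporters were lower for 19 of 33, among them SUC1 arahy.DN7S30.1, which fell by 1.70.

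Nitrogen genes included large differences in both directions. The glutamine synthetase of chloroplasts, arahy.S2QYAG.1, was at 50.3, 46.9 and 50.2 FPKM in the apex against 258 to 293 FPKM in the leaflets (change -2.46, SE 0.030). Asparagine synthetase arahy.Y8KTYY.1 was at 4.95, 5.44 and 5.16 FPKM against 0 to 0.15 FPKM. The nitrate transporter NPF6.3, arahy.0YB7S3.2, was at 34.4, 32.9 and 33.6 FPKM against 0.51 to 1.03 FPKM (change 4.23, SE 0.079), and 48 of 86 tested nitrate and peptide transporter genes were higher, with a median of 0.36 that was 0 without the filter.

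Hormone genes were examined by hormone. Aux/IAA and auxin response factor genes, which read the auxin signal, were higher for 73 of 105 and lower for 21, with a median of 0.70, or 0.24 without the filter, while SAUR genes, which are also auxin responsive, were 16 higher and 15 lower of 62. IAA33-like arahy.1E3WXN.1 was at 26.0, 22.6 and 28.6 FPKM against 0.48 to 1.70 FPKM (change 3.74, SE 0.099). GH3 enzymes, which conjugate auxin, were higher for 14 of 19, and GH3.6 arahy.7FN9BJ.1 was at 22.4, 21.2 and 22.6 FPKM against 1.79 to 2.95 FPKM. The kinase PINOID, a regulator of auxin transport encoded by arahy.QTAT36.1, rose by 2.66 (SE 0.069). Auxin synthesis genes were called both ways, with YUCCA10 arahy.JH3E8T.1 rising by 2.04 and the tryptophan aminotransferase arahy.U4WGIZ.1 falling by 2.51.

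Cytokinin metabolism genes were lower for 21 of 37 and higher for 9, and cytokinin response genes were 14 higher and 9 lower of 30. The activating enzyme LOG, arahy.RA52CN.1, was at 0.57, 0.48 and 0.53 FPKM against 6.31 to 11.96 FPKM (change -2.67, SE 0.074), and cytokinin dehydrogenase 1 arahy.SZ0H4I.1 was at 5.44 to 6.64 FPKM against 25.9 to 36.5 FPKM. Gibberellin genes were higher for 28 of 50, but the synthesis genes GA20-oxidase 2 arahy.BLJ7SD.1 and GA20-oxidase 1-D arahy.22IVZ0.1 fell by 2.82 and 2.71. Ethylene response factors were higher for 53 of 74, with ERF12 arahy.4AG551.1 at 40.6, 45.5 and 44.9 FPKM against 2.04 to 3.27 FPKM. Lipoxygenase 2-1 of the jasmonate route, arahy.VY5ZYI.4, fell from 30.1 to 44.0 FPKM to 0.41, 0.51 and 0.70 FPKM. The jasmonate list as a whole did not fall, with a median of 0.14, or 0.05 without the filter.

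Wall proteins included some of the largest rises. Extensins and proline-rich proteins were higher for 48 of 84 tested genes, 35 by at least 2-fold. The largest rise of all tested genes was in proline-rich protein 36-like arahy.QR8UZF.1 (chromosome 14, 8735317 to 8742418), at 1953, 1943 and 1456 FPKM against 0.38 to 0.85 FPKM (change 10.13, SE 0.11, adjusted p = 1.01e-17). The proline-rich extensin arahy.PL92CA.1 was at 2456, 2377 and 1496 FPKM against 0.74 to 1.96 FPKM (change 9.90, SE 0.16). Extensin-3 arahy.5H31LD.1, with the highest apex mean of all tested genes, was at 6988, 7228 and 4476 FPKM against 1026 to 1244 FPKM (change 2.47, SE 0.12). Apex library 3 was the lowest for all 3 genes, and without it their changes were 10.27, 10.13 and 2.69. Near-identical copies of these repeat-rich proteins may exchange reads.

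Lignin and wall-loosening genes were split by member. Of 80 lignin synthesis genes 46 were higher and 27 lower, with a median of 0.39 that was 0 without the filter. Cinnamoyl-CoA reductase 1 arahy.I8IQWM.1 was at 469, 497 and 475 FPKM against 20.9 to 48.6 FPKM, and caffeoyl-CoA O-methyltransferase 5 arahy.DMW9PU.1 was at 69.1, 66.0 and 65.0 FPKM against 0.11 to 0.34 FPKM (change 5.76, SE 0.063). Laccases, which polymerise lignin, were lower for 12 of 23 and higher for 6. Xyloglucan endotransglucosylases were higher for 23 of 37, with a median of 0.70 that was 0.02 without the filter, and arahy.N9VL7S.1 rose by 3.26. Expansins were called in both directions, 20 higher and 17 lower of 43, with a median of 0.06 that was -0.01 without the filter, and expansin-A10-like arahy.H3QJL0.2 fell from 17.1 to 22.9 FPKM to 0.36, 0.37 and 0.44 FPKM.

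Genes of the plant surface differed by member. Of 76 wax and cutin genes 27 were higher and 37 lower, near the shares of all genes. An ECERIFERUM 1-like gene of the alkane-forming step of wax synthesis (chromosome 6, 106057734 to 106068592) was at 24.7 to 48.0 FPKM in the leaflets and listed at 0 in all 3 apex libraries. The 3-ketoacyl-CoA synthase 20 gene arahy.A9N57E.1, of fatty acid elongation, was at 43.3, 41.3 and 42.9 FPKM in the apex against 0.11 to 0.24 FPKM. GDSL lipases showed the same division, with arahy.8DJR82.1 at 68.6, 64.1 and 64.0 FPKM in the apex against 0 to 0.05 FPKM, and arahy.44UP18.2 at 75.3 to 76.8 FPKM against 581 to 745 FPKM. Lipid-transfer proteins carry surface lipids, and arahy.80U1VQ.1 was at 1005, 1013 and 915 FPKM against 0 to 0.7 FPKM (change 9.62, SE 0.14). The lipid-transfer list had a median of only 0.07, and -0.02 without the filter. PROTODERMAL FACTOR 2-like arahy.Q0AVLX.1, an HD-ZIP IV factor of the outer cell layer, rose by 3.42, and 15 of 23 genes of its family were higher.

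Stomatal genes were lower for 28 of 46 and higher for 16. SPEECHLESS, MUTE and FAMA, the factors of successive steps of the stomatal lineage, summed to 6.32 to 7.47 FPKM in the apex and 34.2 to 43.2 FPKM in the leaflets. Of 6 tested genes of these names, 4 were lower and 1 was higher. Peptides of the EPIDERMAL PATTERNING FACTOR family went both ways, 12 higher and 10 lower. EPF-like 5 arahy.XJM4PX.1 was at 53.9, 54.5 and 64.8 FPKM against 1.39 to 2.58 FPKM, and the petiole mean was 57.3 FPKM.

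Defence-type transcripts were abundant in the apex. PR proteins and chitinases were higher for 134 of 182 tested genes and lower for 30, with 66 at least 2-fold higher. PR-1C-like arahy.0B8THM.1 was at 216, 226 and 217 FPKM against 0 to 0.14 FPKM (change 7.76, SE 0.10). An endochitinase, arahy.62YWNW.1, was at 242, 241 and 240 FPKM against 0 to 0.05 FPKM, and a beta-1,3-glucanase, arahy.E34YE0.1, was at 278, 272 and 301 FPKM against 0 to 0.14 FPKM. All 3 were below 1 FPKM on average in the petiole. Defensin arahy.IS2QLD.1, in contrast, was at 1233 to 1359 FPKM in the apex and averaged 1355 FPKM in the petiole, against 51.9 to 68.3 FPKM in the leaflets. Resistance genes of the NBS-LRR class seldom differed by 2-fold, with 173 of 374 higher and 94 lower but 20 and 18 past that size. The WRKY9 gene on chromosome 13 (141462171 to 141464735) was at 21.8, 20.8 and 21.6 FPKM against 0 to 0.03 FPKM, while WRKY genes as a group were 44 higher and 36 lower of 95.

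Tested stress and secondary metabolism genes leaned to the apex, less so without the filter. The medians of the late embryogenesis, heat shock and flavonoid lists were 1.52, 0.51 and 0.75, and 0.27, 0.14 and 0.08 without it. Late embryogenesis abundant and desiccation genes were higher for 19 of 26, with desiccation-related arahy.RNSZ9K.1 at 99.9, 87.5 and 104 FPKM against 0 to 0.05 FPKM. Heat shock genes were higher for 69 of 115, with the 17.9 kDa protein arahy.SYZ79T.1 at 103, 105 and 115 FPKM against 4.72 to 5.49 FPKM. Flavonoid genes were higher for 49 of 80, and leucoanthocyanidin dioxygenase arahy.AQ6B1J.1 was at 28.3, 27.9 and 29.99 FPKM against 0.33 to 0.71 FPKM, with a higher petiole mean of 90.01 FPKM.

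Markers of other cell types moved with several of these groups. Sieve element occlusion proteins of the phloem were higher for 15 of 27, 4 by at least 2-fold, and lower for 6. They summed to 364.9 to 369.2 FPKM in the apex against 129.3 to 135.8 FPKM in the leaflets. The gene arahy.89XXPU.1 (chromosome 9, 96079438 to 96084845) was at 112, 111 and 111 FPKM against 0.14 to 0.30 FPKM (change 6.56, SE 0.039), and so held 111 to 112 FPKM of that sum. VASCULAR-RELATED NAC-DOMAIN genes of the xylem summed to 12.9 to 13.8 FPKM against 15.05 to 19.7 FPKM, with none of 6 tested called higher. Floral homeotic genes summed to 138.6 to 148.0 FPKM against 106.3 to 112.3 FPKM, 9 of 19 tested being higher and 5 lower. The whole MADS list leaned the other way, with 13 of 51 tested genes higher and 27 lower. Its median was -0.42, or -0.02 without the filter. The B-class genes DEFICIENS arahy.D4F11K.2 and PMADS 1 arahy.QB26WD.1, of petals and stamens, were at 15.03 to 17.2 and 11.3 to 12.7 FPKM against 2.79 to 6.56 and 2.66 to 4.69 FPKM. FLOWERING LOCUS T-like arahy.EM6VH3.1 was at 13.9, 13.5 and 12.4 FPKM against 1.66 to 3.30 FPKM. Early nodulin-75 arahy.JCK56G.1, a proline-rich wall protein gene first known from root nodules, was at 72.2, 70.3 and 74.5 FPKM against 0.20 to 0.62 FPKM. Of 25 tested early nodulin genes 14 were higher and 6 lower. The separate nodulin marker had 5 tested genes, 2 higher and 3 lower. Its genes summed to 24.6 to 26.3 FPKM in the apex against 42.5 to 49.8 FPKM in the leaflets. The part of phloem, flower or axillary tissue in the differences above was not tested.

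Some genes were on in the apex and nearly off in the leaflets, or the reverse. In the apex 81 genes averaged at least 5 FPKM with no leaflet library above 0.1 FPKM, and 18 of these are transcription factors in the authors' annotation column. The reverse held for 30 genes, which averaged at least 5 FPKM in the leaflets with no apex library above 0.1 FPKM, and 2 of these are transcription factors. Over all tested genes 2043 of 39031 carry such an annotation. Keeping 1 gene of each set with identical values left 77 and 29. Of the 81, 24 averaged more than 1 FPKM in the petiole, and of the 30, 5 did. The largest fall of all tested genes was in arahy.WK2RNV.1 (chromosome 7, 76288947 to 76291719), annotated as a 7-ethoxycoumarin O-deethylase of the cytochrome P450 family. It was at 0.42, 0.66 and 0.59 FPKM in the apex and at 434 to 458 FPKM (median 440) in the leaflets (change -8.16, SE 0.061). The BURP domain gene RD22-like arahy.VT6DM9.1 was listed at 0 in all 3 apex libraries and was at 164 to 338 FPKM in the leaflets.

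By the authors' annotation of transcription factors, families differed widely in their balance. GRF genes led with 19 of 22 at least 2-fold higher, followed by SRS genes, of the SHORT INTERNODES family, with 12 of 18, though 5 SRS genes were called lower by less than 2-fold. LOB, PLATZ and BES1 genes were at least 2-fold higher for 13 of 31, 6 of 14 and 6 of 14, and none of these 3 families had a member at least 2-fold lower. ARF genes were at least 2-fold higher for 28 of 58. At the other end, sigma factors, which direct the plastid polymerase, were lower for 12 of 12, and 8 by at least 2-fold. CONSTANS-like genes were at least 2-fold lower for 7 of 18 and MADS genes for 16 of 46. FAR1, Alfin-like, RWP-RK and VARL families had no member past 2-fold in either direction.

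**Figure D5:**
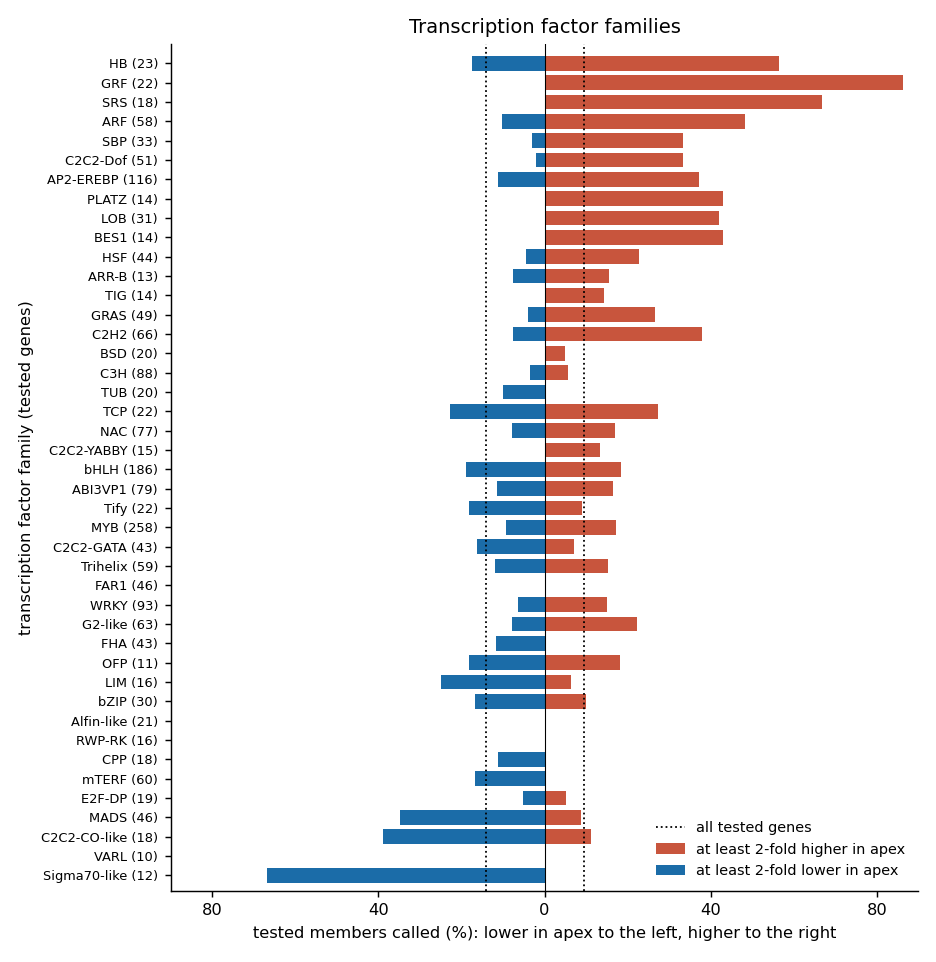
Share of tested members called at least 2-fold higher (red, to the right) or lower (blue, to the left) in the apex, for 43 transcription factor families with at least 10 tested genes, ordered by median change. Dotted lines mark the shares over all tested genes, 9.57% higher and 14.0% lower. GRF and SRS extend farthest to the right and sigma factors farthest to the left.

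Each leaflet was also set against the apex alone. Against the terminal leaflet alone 3934 genes (10.1%) were called at least 2-fold higher and 5526 (14.2%) lower, and against the lateral leaflet alone 3699 (9.48%) and 5663 (14.5%), where both comparisons share the apex libraries. The apex lay between the leaflets for 131 genes, above the lateral and below the terminal leaflet for 98 and the reverse for 33, with both differences called. Both were at least 2-fold for 8 of them. In the authors' deposited table, 41695 of 51714 genes had a q-value under 0.05 between the apex and the lateral leaflet, and 41922 of 52004 between the apex and the terminal leaflet.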

How the data were processed

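RNA of 9 wild-type libraries was compared, 3 each of shoot apex, terminal leaflet and lateral leaflet, with 6 other libraries of the series in the same fit. The authors deposited FPKM per gene, per the file headers, and each library's column is present more than 1 time with identical values and was read once. They also deposited log2 ratios and q-values of pairwise comparisons, per the file headers, used only where credited. Aligner, quantifier, library depths and the authors' test are likewise not given in the sources used here. Abbreviations of the leaflet columns differ from those of the titles, so columns were assigned by the tissue label. The submitters' processing notes name TAIR10, while the gene identifiers and chromosomes are those of the first peanut Tifrunner assembly, and coordinates are those of the deposited file. The design named tests for counts and for FPKM, and the latter applied.

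Values of genes that reached 1 FPKM in 3 or more of the 15 libraries were fitted as log2(FPKM + 1) with a mean per group in limma 3.58.1 (trend and robust) under R 4.3.3, with Benjamini-Hochberg adjustment over 39031 genes and calls at an adjusted p under 0.05. The steps were tested on simulated data. Gene lists are patterns on product names. In each list the rule named the pair of called members with the largest change and at least 5 FPKM in the higher group, and the most abundant member; it also named the largest rises and falls over all genes. Genes printed outside it are the CLAVATA1, CLE19, LSH6 and knotted-1-like 1 genes and the ranges over YABBY, CUC and TCP genes. They were chosen after their values were seen. The copies past 2-fold in opposite directions were also printed outside it, picked by those changes. Members, lists and tests were chosen with earlier results of these data known, and list patterns were adjusted after product names were read. Of the tested genes, 1963 in 971 sets share all values with another gene. Replicate numbers did not pair samples. Figures used matplotlib 3.10.9, pandas 2.3.3 and numpy 2.4.6 in Python 3.11.15; files were read with jsonlite 2.0.0 and with version 1.17.8 of data.table. Tried alternatives were the pseudocount, the filter, quantile normalization, TPM scaling, fewer libraries, each leaflet alone, a replicate block, plain empirical Bayes, each replicate left out, and 1 gene kept per identical set. An item withheld for evaluation is not reported here.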

Additional observations from a re-analysis of the deposited data

Results flagged for a closer look

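The apex lay between the leaflets at 131 genes, at 8 of them by at least 2-fold either way, and 3 are shown by the rule for naming genes. They were chosen for lying between, so a difference between the leaflets is part of the choice and is given as a description. The SULFUR DEFICIENCY-INDUCED 1 gene arahy.G5K9LY.1 was at 1.86, 2.13 and 1.47 FPKM in the apex, at 8.77, 9.27 and 8.40 FPKM in the terminal leaflet and at 0.10, 0.34 and 0.23 FPKM in the lateral leaflet, and terminal exceeded lateral by 3.01 on the log2(FPKM + 1) scale. The UVR8-like gene arahy.CLQJ9M.1 was at 4.54, 4.78 and 4.53 FPKM in the apex, between terminal values of 11.3 to 13.4 FPKM and lateral values of 1.02 to 1.43 FPKM, a leaflet difference of 2.54. The cystinosin homolog arahy.96G9DX.2 was at 3.87, 3.17 and 4.15 FPKM in the apex, between 8.67 to 9.36 FPKM and 0.34 to 0.39 FPKM, a leaflet difference of 2.86. The mean of the leaflets describes neither leaflet at these genes.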

How the results depend on the processing

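All 182 counts of calls and of 2-fold calls under the alternatives tried stayed within 1.5 times those reported. Of 2964 counts over gene lists 45 did not, 23 of them without the filter on low values, 8 after rescaling to TPM, 5 under quantile normalization, 4 against the lateral and 1 against the terminal leaflet alone, and 4 without a single apex library. Without the filter CUP-SHAPED COTYLEDON genes were 8 higher and 1 lower, late embryogenesis genes 29 and 8, SWEET genes 19 and 7, and AINTEGUMENTA-like genes had 15 lower. List medians then moved toward 0, for flavonoid genes from 0.75 to 0.08 and for gibberellin genes from 0.49 to 0.004. PR proteins and chitinases moved from 0.61 to 0.23, and WOX genes from 0.50 to 0.08. Extensins and proline-rich proteins moved from 0.48 to 0.04, HD-ZIP IV genes from 0.52 to 0.08 and GH3 genes from 1.16 to 0.45. With a pseudocount of 0.1, 5225 genes were at least 2-fold higher and 7757 lower, against 3734 and 5483, and quantile normalization gave 4343 and 4784. Among all calls, 44.3% were higher in the apex, 50.8% under quantile normalization and 49.6% after rescaling to TPM. Leaving out each replicate in turn gave 13277 to 13657 higher and 16592 to 17138 lower calls. With the replicate block 13734 were higher and 17251 lower; the block stands only here because same-numbered samples did not deviate together (correlations of -0.055 to 0.050 over 9 pairs of samples). Keeping 1 gene of each set with identical values, an alternative chosen after seeing the data, gave 13372 and 16858. Among the genes named, cyclin B1-2 arahy.M5A7E6.1 reversed to 0.040 after rescaling to TPM, and arahy.G5K9LY.1 to 0.20 with a pseudocount of 0.1 and to 1.20 against the lateral leaflet alone. Against the terminal leaflet alone arahy.96G9DX.2 reversed to -1.07 and arahy.CLQJ9M.1 to -1.24, and without single leaflet replicates arahy.CLQJ9M.1 ranged from -0.018 to 0.055. The causes were not tested. FPKM without counts leave the depth behind low values unknown.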

Other observations

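Peanut is an allotetraploid, with an A and a B subgenome whose chromosomes correspond in pairs. Product names found on 1 gene of a chromosome and on 1 gene of its counterpart gave 6650 such pairs, of which 5024 had both genes tested. Both copies were at least 2-fold higher in the apex in 363 pairs and at least 2-fold lower in 474, while 1 copy alone passed upward in 246 and downward in 315. The copies differed in their change by a median of 0.20 (log2), and by at least 2 in 31 pairs. Only 2 pairs had copies past 2-fold in opposite directions. The copies of the 60S ribosomal protein L10-like gene changed by -1.43 (arahy.486F8V.1) and 1.34 (arahy.DS63LJ.1), and those of the GDSL lipase At2g04570 by 2.05 (arahy.WF5RYQ.1) and -1.09 (arahy.2C0WSA.1). Near-identical copies may exchange reads, and the pairing rests on the product name alone.

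Genes of the A subgenome were at least 2-fold higher in 9.66% and lower in 14.2%, and those of the B subgenome in 9.32% and 14.0%. The 242 tested genes on unplaced scaffolds were at least 2-fold higher in 23.97% and lower in 6.61%, with a median change of 0.45. Clock genes had 19 of 40 higher and 16 lower in the apex, and the hour of harvest is not given.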
